A study of Mus musculus with 3 samples.

Results

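The T cell chemokine ligands examined here were 6 genes, Ccl1, Ccl3, Ccl4, Ccl5, Ccl9 and Xcl1, taken by symbol from the 33696 genes of the deposited count matrices. They were described in intratumoral CD8+ T cells from 3 single-cell RNA-seq libraries, 1 per treatment group, which were named after the cytokine: sIL-2, the IL-2/21-Trikine (Trikine for short) or sIL-2 with IL-21 (sIL-2 + IL-21). The donor cells were TCR-transgenic pmel T cells, which recognize the melanoma antigen gp100 and carry the congenic marker Thy1.1, and they were cultured with peptide and cytokine before transfer into lymphodepleted C57BL/6 mice bearing B16F10 melanoma. B16F10 is an established mouse melanoma line. sIL-2 is an engineered "super" IL-2, and the IL-2/21-Trikine joins sIL-2 to a binder of the IL-21 receptor chain, so that 1 molecule engages both receptors. Mice that received cells preconditioned with sIL-2 or with sIL-2 + IL-21 were given sIL-2 alone after transfer, whereas mice with Trikine-preconditioned cells were given the Trikine, and the sIL-2 and sIL-2 + IL-21 groups therefore differed in preconditioning only. All doses were albumin-fused cytokines injected repeatedly, and tumors were taken on day 18. Live Thy1.1+CD8+ cells were sorted before the droplet assay. The number of mice behind each library was not given in the sources used here.

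Chemokines are small secreted proteins that guide leukocytes through G protein-coupled receptors. Ccl3 and Ccl4, also known as MIP-1α and MIP-1β, and Ccl5, also known as RANTES, are released by activated and memory CD8+ T cells, and Ccl3 and Ccl5 bind Ccr1. Ccl1 is the ligand of Ccr8, a receptor found on regulatory T cells in tumors. Xcl1, lymphotactin, acts on Xcr1, which marks cross-presenting dendritic cells. Ccl9 is a mouse ligand of Ccr1 best known from myeloid cells. Ccl3, Ccl4 and Xcl1 are transcribed quickly after antigen receptor signaling, whereas Ccl5 messenger RNA is acquired late in T cell differentiation and is kept in resting memory cells.

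In the files' gene order Ccl5, Ccl9, Ccl6, Ccl3 and Ccl4 were neighbours, apart from a pair of unnamed loci, and RefSeq (GRCm38.p6) placed Ccl1 and these genes on chromosome 11 and Xcl1 on chromosome 1. Promoter windows were held for 4 of the 6 genes, Ccl1, Ccl3, Ccl9 and Xcl1. They are shown because Ccl9 had its highest ratios of shared cells with Ccl3 and Ccl1 (below), with Xcl1 as the gene from another chromosome. Each line gives the 250 bases before the annotated start on the minus strand, at chr11:82179813-82180062 for Ccl1, chr11:83649379-83649628 for Ccl3, chr11:83578637-83578886 for Ccl9 and chr1:164935523-164935772 for Xcl1, and capitals mark matches to the motifs searched.
Ccl1: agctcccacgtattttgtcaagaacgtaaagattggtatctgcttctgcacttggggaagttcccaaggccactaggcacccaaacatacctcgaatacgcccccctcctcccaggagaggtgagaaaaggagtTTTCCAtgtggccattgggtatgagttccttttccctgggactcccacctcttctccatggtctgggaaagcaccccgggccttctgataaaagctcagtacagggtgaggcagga
Ccl3: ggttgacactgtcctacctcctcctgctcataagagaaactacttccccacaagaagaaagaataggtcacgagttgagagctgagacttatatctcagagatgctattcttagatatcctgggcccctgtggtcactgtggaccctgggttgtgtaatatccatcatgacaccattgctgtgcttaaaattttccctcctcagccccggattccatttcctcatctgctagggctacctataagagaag
Ccl9: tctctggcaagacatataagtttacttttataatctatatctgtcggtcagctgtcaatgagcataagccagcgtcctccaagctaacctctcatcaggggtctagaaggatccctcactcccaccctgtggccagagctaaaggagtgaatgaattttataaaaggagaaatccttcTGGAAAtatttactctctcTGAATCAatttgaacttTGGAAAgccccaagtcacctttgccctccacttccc
Xcl1: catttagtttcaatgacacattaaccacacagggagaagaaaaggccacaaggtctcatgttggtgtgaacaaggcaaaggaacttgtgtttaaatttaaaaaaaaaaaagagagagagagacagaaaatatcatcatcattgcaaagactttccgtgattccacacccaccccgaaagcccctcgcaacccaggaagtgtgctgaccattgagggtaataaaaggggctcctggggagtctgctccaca
The search covered both strands of the 300-base windows, which run 50 bases past the start, for AP-1 (TGANTCA), the NFAT core (TGGAAA) and the cyclic AMP response element CRE (TGACGTCA). The NFAT core occurred at bases 135 to 140 of the Ccl1 window, in the opposite orientation, and at bases 179 to 184 and 215 to 220 of the Ccl9 window, and it was held by 21.4% of the 32851 windows of all genes. The Ccl9 window also held TGAATCA at bases 198 to 204, a match to the AP-1 string TGANTCA with A as its free base. A match to this string was held by 7.81% of all windows. CRE, found in 1.79% of all windows, had no match in the 4 windows, and the Ccl3 and Xcl1 windows held none of the 3 letter strings.

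After the study's limits on cells, the sIL-2, the Trikine and then the sIL-2 + IL-21 library held 7760, 13299 and 9798 cells with medians of 12882.5, 10254 and 14055.5 unique molecular identifiers (UMIs, each standing for 1 captured RNA molecule). The T cell markers Cd3e and Cd8b1 had a UMI in 87.6% to 96.9% of cells in every library. Few cells carried markers of another type: 26 cells in all met the myeloid rule and 9 the melanoma rule. The 3 pairs of libraries shared 30, 18 and 41 cell barcodes, at most 0.418% of a library. There was 1 library per treatment and no test between treatments was possible. The intervals given here are 95% intervals that cover counting error only, and they say nothing of the spread between mice or libraries. Levels are summed UMIs scaled to the total UMIs of a library (CPM). They come from a 3′ tag assay, are not divided by length, and are compared between libraries and not between genes.

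Ccl5 was the chemokine whose level differed most between libraries. It stood at 2274 CPM in the sIL-2 library, 935 CPM in the IL-2/21-Trikine library and 895 CPM in the sIL-2 + IL-21 library. The sIL-2 library was thus high and the other 2 were close to each other. The log2 ratio was -1.28 (interval -1.29 to -1.27) for Trikine over sIL-2 and -1.34 (-1.35 to -1.34) for sIL-2 + IL-21 over sIL-2. Only 0.397% and 0.632% of the genes at 10 CPM or more lay lower in these comparisons.

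Xcl1 did not follow Ccl5. Its level was 4274 CPM in the sIL-2 library, 4281 CPM in the IL-2/21-Trikine library and 2911 CPM in the sIL-2 + IL-21 library. Here the sIL-2 + IL-21 library was the low one, with a log2 ratio of 0.56 (0.55 to 0.56) for Trikine over sIL-2 + IL-21. The Trikine and sIL-2 libraries could not be told apart by counting error, with a log2 ratio of 0.00 (-0.00 to 0.01).

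The paired inflammatory chemokines Ccl3 and Ccl4 were highest in the sIL-2 library. Ccl3 was at 1179, 871 and 882 CPM in the sIL-2, then the Trikine, then the sIL-2 + IL-21 library, and Ccl4 was at 2746, 2241 and 1892 CPM in the same order. For Ccl4 all 3 libraries were apart, and for Ccl3 the last 2 were nearly level, with a log2 ratio of -0.02 (-0.03 to -0.01) for Trikine over sIL-2 + IL-21. Ccl1, the Ccr8 ligand, gave 1828, 1325 and 1194 CPM, again highest with sIL-2. Ccl9 was a low gene throughout, at 30.8 CPM in the sIL-2 library, 25.7 CPM in the IL-2/21-Trikine library and 24.9 CPM in the sIL-2 + IL-21 library, and the interval for Trikine over sIL-2 + IL-21 spanned 0 (log2 ratio 0.05, -0.01 to 0.11).

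**Figure D1:**
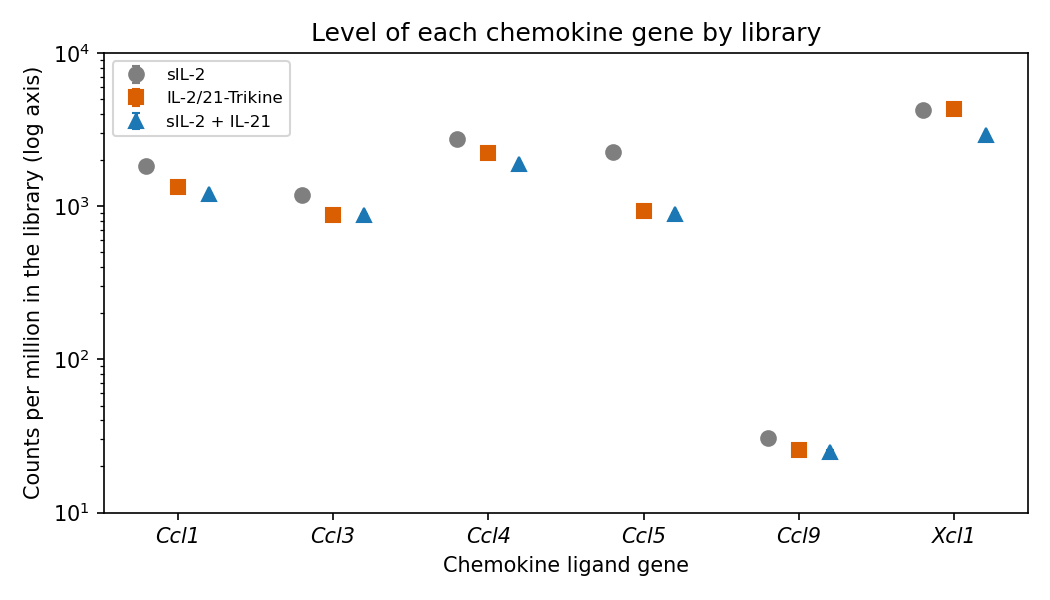
Level of each chemokine gene (CPM in the library, log axis) in the 3 libraries, 1 point per library, with exact Poisson intervals that are smaller than the symbols. Ccl5 is set apart in the sIL-2 library (2274 CPM against 935 and 895), and Xcl1 is lowest in the sIL-2 + IL-21 library (2911 CPM).

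A log2 ratio of at least 0.5 in either direction was used as the mark of a difference. For Trikine over sIL-2, 1 of 6 chemokines (Ccl5, lower) passed it, against 8.48% of the 7548 genes at 10 CPM or more. For Trikine over sIL-2 + IL-21, 1 of 6 (Xcl1, higher) passed, against 6.69% of 7489 genes. For sIL-2 + IL-21 over sIL-2, 4 of 6 passed and all 4 were lower (Ccl1 at -0.61, Ccl4 at -0.54, Ccl5 at -1.34 and Xcl1 at -0.55 on the log2 scale), against 16.0% of 7596 genes, of which 10.3% were lower. When each cell was weighted equally, so that RNA-rich cells counted no more than others, the last count was 1, Ccl5 at -0.98, and Xcl1 no longer passed for Trikine over sIL-2 + IL-21, at 0.27. The 6 genes had a median log2 ratio of -0.37, 0.11 and -0.55 in these comparisons, and all genes had medians of -0.08, 0.00 and -0.08. The comparisons share libraries and are not independent of each other.

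Differences in level can come from the number of positive cells or from the UMIs per positive cell. The 2 were read after every cell was thinned at random to 2000 UMIs. This left 7494, 11524 and 9434 cells, and 3.43%, 13.3% and 3.72% of cells were too shallow to be included. Each thinned cell counts equally, whatever its depth, so the 2 measures do not multiply to the summed level. Ccl5 was found in 75.6% (74.6 to 76.6) of thinned cells in the sIL-2 library, in 55.1% (54.2 to 56.0) in the IL-2/21-Trikine library and in 44.3% (43.3 to 45.3) in the sIL-2 + IL-21 library. Its positive cells held 8.61, 5.50 and 7.33 UMIs on average. The Trikine library was therefore low on both measures, while the sIL-2 + IL-21 library had the fewest Ccl5+ cells but more UMIs in each than the Trikine library.

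Xcl1 was found in 52.9% (51.7 to 54.0) of cells with sIL-2, 69.8% (68.9 to 70.6) with IL-2/21-Trikine and 56.6% (55.6 to 57.6) with sIL-2 + IL-21. The mean per positive cell was 13.7, 11.4 and 10.9 UMIs. The summed level of Xcl1 was equal in the Trikine and sIL-2 libraries. Among thinned cells the Trikine library had more positive cells than the sIL-2 library and fewer UMIs in each. The Trikine library had the highest Xcl1 share at every thinning depth tried and without thinning.

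The shares of the other genes lay closer together. Ccl4 was found in 47.6%, 43.8% and 43.6% of thinned cells in the sIL-2, then the Trikine, then the sIL-2 + IL-21 library, and the intervals of the last 2 overlapped (42.9 to 44.7 and 42.6 to 44.6). Ccl1 was found in 31.4%, 28.3% and 30.1% of cells, and Ccl3 in 25.6%, 23.1% and 22.1%. Ccl9 was found in 2.95%, 2.89% and 2.90% of cells, with intervals that overlapped in all 3 libraries. Without thinning the shares were larger: 93.2%, 76.2% and 75.3% for Ccl5, 83.2%, 86.1% and 85.0% for Xcl1, 82.1%, 73.7% and 80.4% for Ccl4, 59.9%, 52.9% and 61.0% for Ccl1, 50.7%, 41.2% and 48.3% for Ccl3, and 8.05%, 7.10% and 8.77% for Ccl9. The unthinned order of the libraries changed for Ccl1, Ccl3, Ccl4 and Ccl9 and stayed for Ccl5 and Xcl1.

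**Figure D2:**
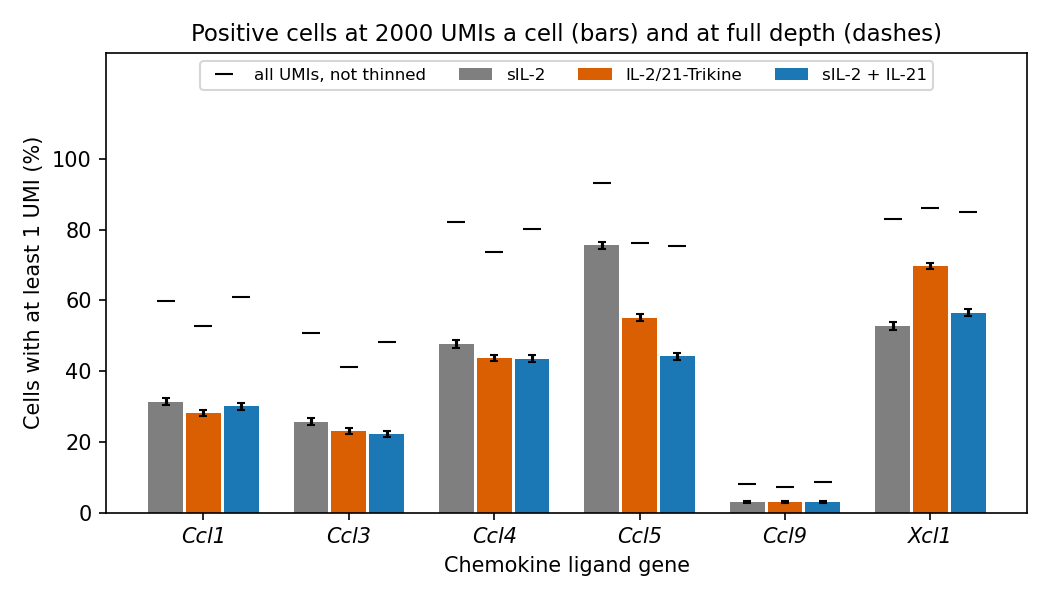
Share of cells with at least 1 UMI of each chemokine gene (%), by library. Bars are cells thinned to 2000 UMIs with exact binomial intervals and dashes are all kept cells at full depth. Ccl5 falls from 75.6% to 55.1% and 44.3% across the 3 libraries, while Xcl1 is highest in the IL-2/21-Trikine library at 69.8%.

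Free RNA can place a UMI in a droplet whose cell does not make the transcript, and cells with melanoma markers were used as the reference for this. Only 9 such cells remained after thinning, with a median of 4058 UMIs against 12881 in cells without markers of another type. Of these 9 cells, 3 held Xcl1 and 3 held Ccl5 (33.3%, 7.48 to 70.1), 2 held Ccl3, 1 each held Ccl1 and Ccl4, and none held Ccl9, which allows a share of up to 33.6%. The reference is thus too small to place a low share such as that of Ccl9 above or below it. In summed level the contrast was plainer for 4 genes: Xcl1 was at 90.0 CPM in the melanoma-marked cells and 3797 CPM in cells without other markers, Ccl4 at 49.1 and 2261 CPM, Ccl3 at 49.1 and 963 CPM, and Ccl1 at 65.5 and 1424 CPM. Ccl5 was at 777 CPM in the melanoma-marked cells, from 95 UMIs, and 1300 CPM in the others. The T cell genes Cd3e and Gzmb were at 73.7 and 188 CPM in the melanoma-marked cells, and at 642 and 3888 CPM in the others. Droplets with both a tumor cell and a T cell were not told apart, so these values cannot be read as free RNA alone. The 26 myeloid-marked cells held Ccl3 at 2541 CPM, Ccl4 at 5427 CPM, Ccl9 at 168 CPM and Xcl1 at 5612 CPM. These values pool the 3 libraries. In each library Ccl3, Ccl4 and Ccl9 were higher than in cells without other markers, and Ccl5 (648 CPM pooled) was lower. Xcl1 was higher when pooled but lower in the sIL-2 library (201 against 4287 CPM), and 1572 of its 1939 UMIs came from the Trikine library. Ccl1 (1097 CPM) was lower when pooled, but higher in the Trikine library (1465 against 1334 CPM) and the sIL-2 + IL-21 library (1310 against 1196 CPM). These myeloid-marked cells held only 0.196%, 0.179%, 0.465% and 0.110% of the UMIs of Ccl3, Ccl4, Ccl9 and Xcl1. They also held the T cell gene Cd3e at 287 CPM, so these levels cannot be read as myeloid RNA alone.

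Transcripts of most of these genes were concentrated in few cells. The 5% of cells with most UMIs of Ccl3 held 69.5%, 76.5% and 75.4% of all its UMIs in the sIL-2, then the Trikine, then the sIL-2 + IL-21 library. The same measure was 62.0%, 71.2% and 67.0% for Ccl1, 57.9%, 67.5% and 63.9% for Ccl4, and 61.2%, 56.0% and 63.5% for Xcl1. For Ccl5 it was 23.4%, 33.0% and 41.6%, below every value of those genes. The highest cell held 3129 UMIs of Xcl1 in the sIL-2 library and 3092 in the IL-2/21-Trikine library, and no cell held more than 686 UMIs of Ccl5. For Ccl9 the same measure was 91.1% to 93.9%, but with 7.10% to 8.77% of cells positive at full depth this is close to all of its positive cells.

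Ccl1, Ccl3, Ccl4, Ccl9 and Xcl1 were found in the same cells more often than their shares alone would give. This was least so for Ccl4 and Xcl1, at 1.10 to 1.18 times the expected number. Ccl5 was found with Ccl1 and with Xcl1 about as often as the shares give. For each pair, the number of thinned cells with both genes was divided by the number expected from the 2 shares within a library. Of 15 pairs, 5 had a ratio of at least 1.5 in all 3 libraries. Ccl3 and Ccl9 had the highest ratios, 2.68 (2.27 to 3.14), 3.17 (2.79 to 3.60) and 3.28 (2.84 to 3.77) in the sIL-2, then the Trikine, then the sIL-2 + IL-21 library. Ccl1 and Ccl9 gave 2.54, 2.47 and 2.52. The Ccl4 and Ccl9 ratios were 1.79, 1.88 and 1.86. Ccl1 and Ccl3 gave 1.77, 1.81 and 1.82, and Ccl3 and Ccl4 gave 1.76, 1.82 and 1.83. These ratios differed little between libraries.

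Seen from the cells, 84.1%, 79.7% and 79.6% of Ccl3+ cells also held Ccl4, whereas 45.3%, 42.0% and 40.5% of Ccl4+ cells held Ccl3. Most of the Ccl3+ cells thus lay within the Ccl4+ cells. The reverse share was bound to be lower, because there were fewer Ccl3+ cells (1922, 2660 and 2088) than Ccl4+ cells (3570, 5046 and 4110). Of the 221, 333 and 274 Ccl9+ cells, 87.3%, 94.6% and 85.4% held Xcl1 and 79.6%, 69.7% and 75.9% held Ccl1. Ccl9+ cells were mostly a small set within the cells positive for the other genes.

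The ratio has a ceiling set by the more frequent gene, so that 9 of the 15 pairs, all of them with Ccl5 or Xcl1, could not reach 1.5 in every library. The odds ratio has no such ceiling and was added after the data were seen: 9 of 15 pairs had a log2 odds ratio of at least 1 in all 3 libraries. These were the 5 pairs above, with Ccl1 and Ccl4 (1.32 to 1.57), and the pairs of Xcl1 with Ccl9 (2.22 to 2.97), Ccl1 (1.61 to 2.01) and Ccl3 (1.24 to 1.75). Ccl3 and Ccl4 ranged from 2.97 to 3.29 on this scale. Ccl4 and Xcl1 ranged from 0.62 to 1.08. Ccl5 with Ccl3 (0.98 to 1.29) and with Ccl4 (0.93 to 1.11) lay near the limit. Ccl5 and Ccl1 ranged from -0.11 to 0.35, and Ccl5 and Xcl1 from -0.52, in the IL-2/21-Trikine library, to 0.07.

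**Figure D3:**
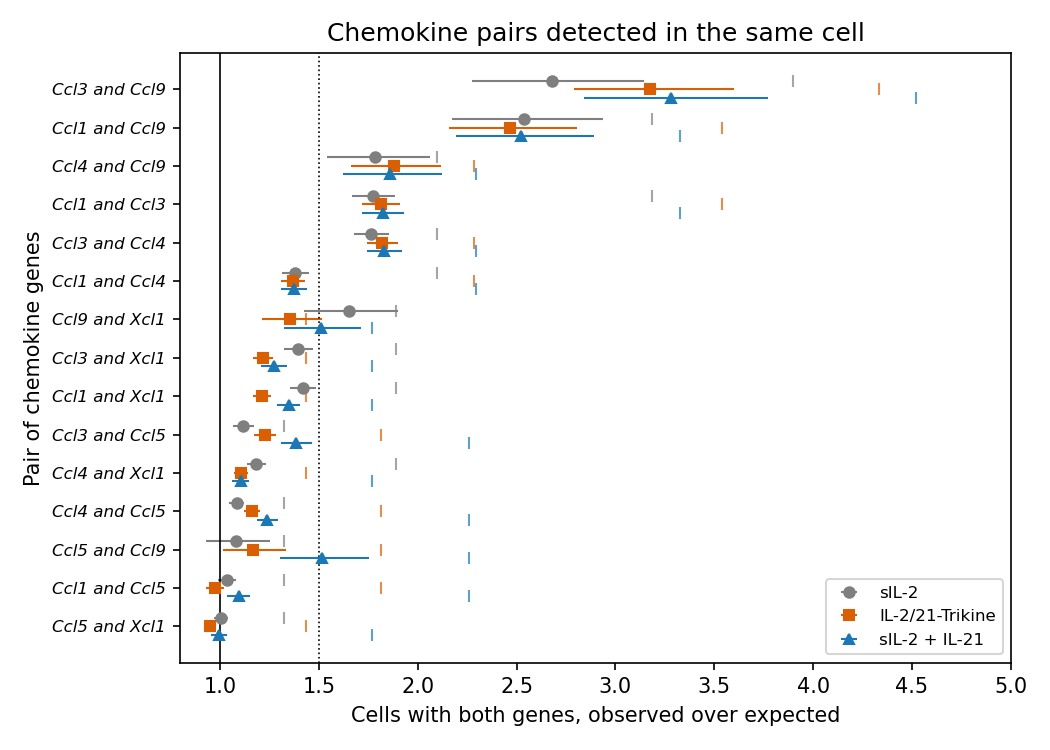
Cells with both genes of a pair, observed over expected from the 2 shares, at 2000 UMIs a cell. Points are the 3 libraries with exact Poisson intervals of the observed count, short vertical ticks mark the highest ratio the shares allow, and the dotted line is at 1.5. Ccl3 and Ccl9 are at 2.68 to 3.28, and Ccl5 and Xcl1 at 0.95 to 1.01.

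Cells with many or none of the 6 chemokines were both more frequent than independent genes would give. In the sIL-2 library 9.14% of thinned cells held 5 of the 6 genes against 1.82% expected, in the IL-2/21-Trikine library 6.55% against 1.33%, and in the sIL-2 + IL-21 library 5.82% against 0.898%. All 6 genes were found in 101, 123 and 120 cells. None of the 6 was found in 6.59%, 6.81% and 13.1% of cells, against 2.98%, 4.08% and 7.22% expected. The middle counts were correspondingly thin, with 3 genes in 17.3%, 18.0% and 14.9% of cells against 30.4%, 28.0% and 23.0%. The combination of Ccl1, Ccl3, Ccl4, Ccl5 and Xcl1 without Ccl9 was held by 626, 640 and 482 cells, which is 5.61, 5.21 and 7.25 times the expected number.

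The most frequent single pattern differed between the sIL-2 and IL-2/21-Trikine libraries. Ccl5 alone was the leading pattern in the sIL-2 library, at 17.1% of cells, and was found in 9.64% and 8.80% of cells of the Trikine library and the sIL-2 + IL-21 library. Xcl1 alone led in the IL-2/21-Trikine library, at 14.1%, with 13.0% in the sIL-2 + IL-21 library and 4.83% in the sIL-2 library. In the sIL-2 + IL-21 library cells with none of the 6 genes (1238 cells) and cells with Xcl1 alone (1229 cells) were nearly level at the top.

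**Figure D4:**
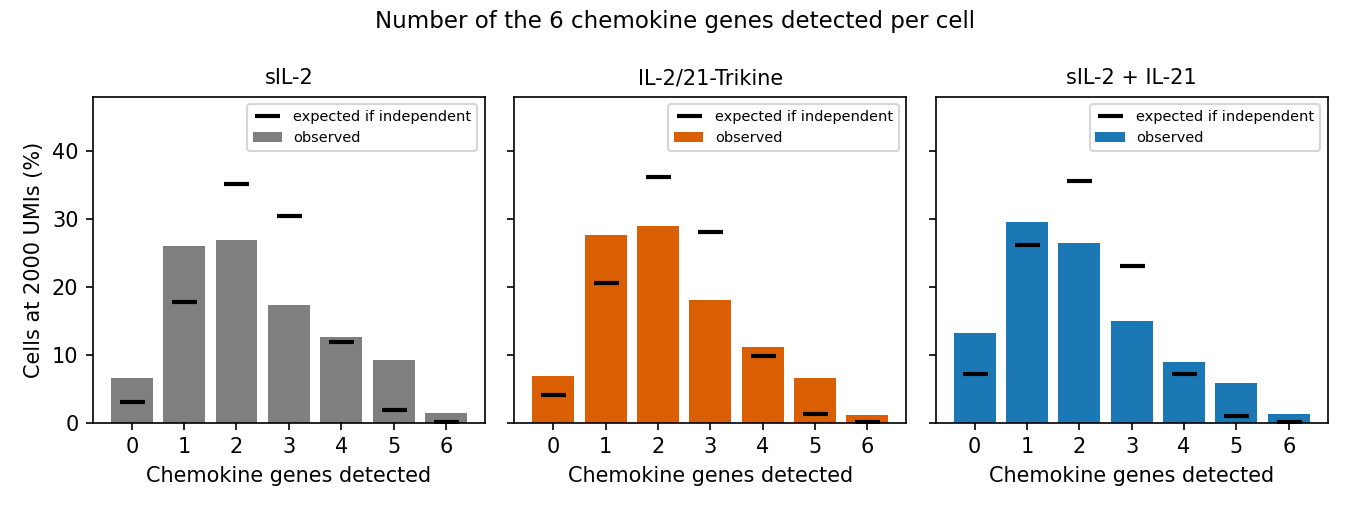
Share of cells (%) by the number of the 6 chemokine genes detected at 2000 UMIs, 1 panel per library. Bars are observed and black dashes are expected if the genes were independent. Cells with 5 genes are at 9.14%, 6.55% and 5.82% against 1.82%, 1.33% and 0.898% expected.

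The genes that marked the positive cells were then read for each chemokine, as the ratio of summed CPM in positive over other cells within a library, with a gene counted as higher when its log2 ratio was at least 0.5 in all 3 libraries. Ccl3+ cells carried cytokine genes that T cells induce on stimulation. The median log2 ratio over all genes tested was -0.05 to -0.01 for the 6 chemokines. Genes were tested at 10 CPM or more in the positive cells of every library, which lets in genes that are high there and low elsewhere. A filter of 10 CPM over all cells of every library was therefore added after the data were seen (7005 genes, without the chemokine itself), and the leading genes below are those that passed it. All cells include the positive cells, so this filter lessens the problem but does not remove it. Il3, Il2 and Ccl9 were under 10 CPM in every library in cells without Ccl1, Ccl3, Ccl4 or Xcl1, each chemokine taken alone. S1pr1 was likewise under 10 CPM in cells without Ccl5. Egr2, counted below with the antigen signal genes, was under 10 CPM in every library in cells without Ccl3 (9.01, 8.17 and 5.29 CPM). The same held for Egr2 in cells without Ccl4 and in cells without Xcl1. The counts below for effector cytokines, antigen signal, cycling and cytotoxic genes came out alike with either filter. Il3, a growth factor for hematopoietic cells, led at log2 ratios of 5.86 to 6.58 over the 3 libraries and stood at 177, 75.0 and 177 CPM in Ccl3+ cells against 1.85, 1.29 and 1.97 CPM in the others. Il2, the autocrine T cell growth factor, followed at 5.50 to 6.11. Ccl4 (3.82 to 4.28), Ccl9 (3.28 to 3.63) and Ifng (2.96 to 3.78) completed the leading 5. Of 10 effector cytokines that passed the level filter, 7 were higher in Ccl3+ cells (Ifng, Tnf, Lta, Il2, Il3, Csf2 and Tnfsf14), and 10 of 13 antigen signal genes were, among them Egr2 (1.92 to 2.20), Egr3 (1.63 to 2.18) and Nr4a1 (1.21 to 1.36), early response genes of the T cell receptor. The background was 3.53% of 6846 genes.

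Ccl4+ cells were led by Il2 (4.97 to 5.58), Ccl3 (4.67 to 5.07), Il3 (4.33 to 5.34), Ccl9 (2.70 to 3.14) and Ifng (2.48 to 3.12), the cytokine that induces Cxcl9 and Cxcl10 in other cells. Again 7 of 10 effector cytokines were higher, and 9 of 13 antigen signal genes were, against a background of 1.31% of 6926 genes. All 5 other chemokines were higher, with Ccl5 just past the mark (0.50 to 1.25). Cxcl2, a neutrophil-attracting chemokine, was at 22.2, 15.2 and 10.6 CPM in Ccl4+ cells and 0.265, 0.143 and 0.174 CPM in the others, and it passed the first filter only through the positive cells, as it did for Ccl3+ cells. It was found in 0.127% to 0.187% of thinned cells, and the cells with at least 2 of 10 myeloid markers at full depth, 2.09%, 0.812% and 1.46% of the libraries, held 97.3%, 93.7% and 47.3% of its UMIs. The same cells held 1.39% to 2.97% of the Ccl4 UMIs, and the ratio of Ccl3 and Ccl4 was 1.77 to 1.83 without them.

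Ccl1+ cells were led by Il3 (3.97 to 5.17), Il2 (3.18 to 4.50), Ccl9 (2.75 to 3.19), Ccl3 (2.53 to 3.07) and Ifng (2.26 to 2.39). The background was 1.48% of 6937 genes. The same 7 effector cytokine genes were higher, but only 4 of 13 antigen signal genes were (Nr4a1, Egr2, Egr3 and Myc). Of the stem and memory genes 2 of 7 were lower, against 0.620% of all genes, and these were Tcf7 (-0.83 to -0.73) and Lef1 (-0.68 to -0.54), transcription factors of stem-like and naive T cells. Il7r (-0.80 to -0.44), Bcl2 (-0.62 to -0.44) and Klf2 (-0.51 to -0.29) were below 0 in all 3 libraries but short of the mark. Bach2 (0.14 to 0.34) and Ccr7 (0.01 to 0.59) were above 0 in all 3 libraries. With the filter over all cells S1pr1 was also lower and the count was 3 of 8, against 0.771% of all genes. Positive cells of Ccl1, Ccl3, Ccl9 and Xcl1 had higher median UMIs than other cells in all 3 libraries (for Ccl1 16474, 14013 and 16090 against 11927, 10701 and 13889), and the part of depth in their ratios was not tested.

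Ccl9+ cells were led by Il3 (3.80 to 4.24), Ifng (2.50 to 3.14), Xcl1 (2.41 to 2.77), Ccl3 (2.36 to 2.97) and Ccl1 (2.12 to 2.45). Ccl6 passed the first filter only through Ccl9+ cells, at 29.0, 30.0 and 12.9 CPM against 3.26, 5.81 and 2.47 CPM in the others. Ccl6 is the neighbour of Ccl9 and its relative in sequence, and reads of the pair were not separable here from the deposited counts. The background was 5.07% of 6624 genes, and 6.14% were lower. Of the effector cytokines 7 of 10 were higher. Of the cycling genes 8 of 10 were lower, among them Mki67 (-1.18 to -1.03), and of the stem and memory genes 4 of 7 were (Tcf7, Lef1, Il7r and Bcl2), or 5 of 8 with the filter over all cells, which added S1pr1 and had 7.98% of all genes lower. Ccl9+ cells were few and deep, with medians of 18823, 14468 and 16217.5 UMIs against 13099, 11498 and 14515.5 in other cells.

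Xcl1+ cells were led by Il3 (3.28 to 5.64), Il2 (3.11 to 3.58), Ccl1 (2.70 to 3.13), Ccl3 (2.44 to 2.75) and Ccl9 (2.42 to 3.10), against a background of 0.745% of 6977 genes. Crabp2, which encodes a retinoic acid binding protein, was at 36.4, 24.3 and 16.2 CPM in Xcl1+ cells and 2.07, 1.07 and 0.945 CPM in the others, and passed the first filter only through the positive cells, as it did for Ccl1+ and Ccl9+ cells. Of the effector cytokines 6 of 10 were higher (Ifng, Lta, Il2, Il3, Csf2 and Tnfsf14), and of the antigen signal genes 3 of 13 were. Of the cytotoxic genes 3 of 8 were lower, against 0.186% of all genes, and these were the granzymes Gzmd (-2.05 to -1.31), Gzme (-1.76 to -1.20) and Gzmf (-1.81 to -1.36). Cd160, an inhibitory receptor gene, was higher in Xcl1+ cells (1.04 to 1.41), as it was in Ccl1+, Ccl3+, Ccl4+ and Ccl9+ cells, and it was the only 1 of 8 terminal and checkpoint genes that was higher in any of these.

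Ccl5+ cells were led by Ccl4 (1.88 to 2.42), Cd40lg, the ligand of CD40 (1.56 to 1.96), Ccl3 (1.47 to 2.30), Egr3 (lowest ratio 1.43) and S1pr1 (1.34 to 1.60), the receptor for egress from tissue. The background was 1.93% of 6945 genes. Of the 5 other chemokines 4 were higher, among them Xcl1 (0.56 to 1.53), and Ccl1 was at 0.43 to 1.25. The reverse ratios were smaller: Ccl5 was at -0.71 to -0.13 in Xcl1+ cells and at -0.23 to 0.29 in Ccl1+ cells. Cells with both Ccl5 and Xcl1 were at 0.95 to 1.01 times the expected number. Of the 5 interferon-stimulated genes that passed the filter over all cells, 3 were higher, against 1.66% of all genes: Isg15 (0.92 to 1.37), Irf7 (0.80 to 1.18) and Mx1 (0.53 to 0.98). None of these 5 genes was higher in the positive cells of another chemokine, and 4 of them were lower in Ccl9+ cells. The first filter gave 5 of 7 in Ccl5+ cells, but it tested only 4 or 5 genes of the list for the other chemokines, and Ifit3 passed it only through Ccl5+ cells (12.2 against 3.28 CPM in the sIL-2 + IL-21 library). The difference between chemokines was not tested. Klf2, the activator of S1pr1, was higher as well (0.55 to 0.96). Of the cycling genes 9 of 10 were lower, with Mki67 at -1.26 to -0.82 and 2.28% of all genes lower, as were 4 of 8 cytotoxic genes (Gzmc, Gzmd, Gzme and Gzmf). Of the antigen signal genes 9 of 13 were higher, but of the effector cytokines only 4 of 10 (Ifng, Tnf, Il2 and Tnfsf14). Ccl5+ cells were also shallower, with medians of 11920, 9336.5 and 10897.5 UMIs against 18525, 14749 and 17632 in other cells. The cycling list was higher where Ccl5 was lower, with 9 of 10 genes higher for sIL-2 + IL-21 over sIL-2 (median log2 ratio 0.82) against 5.65% of all genes, and 6 of 10 for Trikine over sIL-2 (0.55) against 2.72%, and the part of cycling cells in the Ccl5 difference was not tested.

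**Figure D5:**
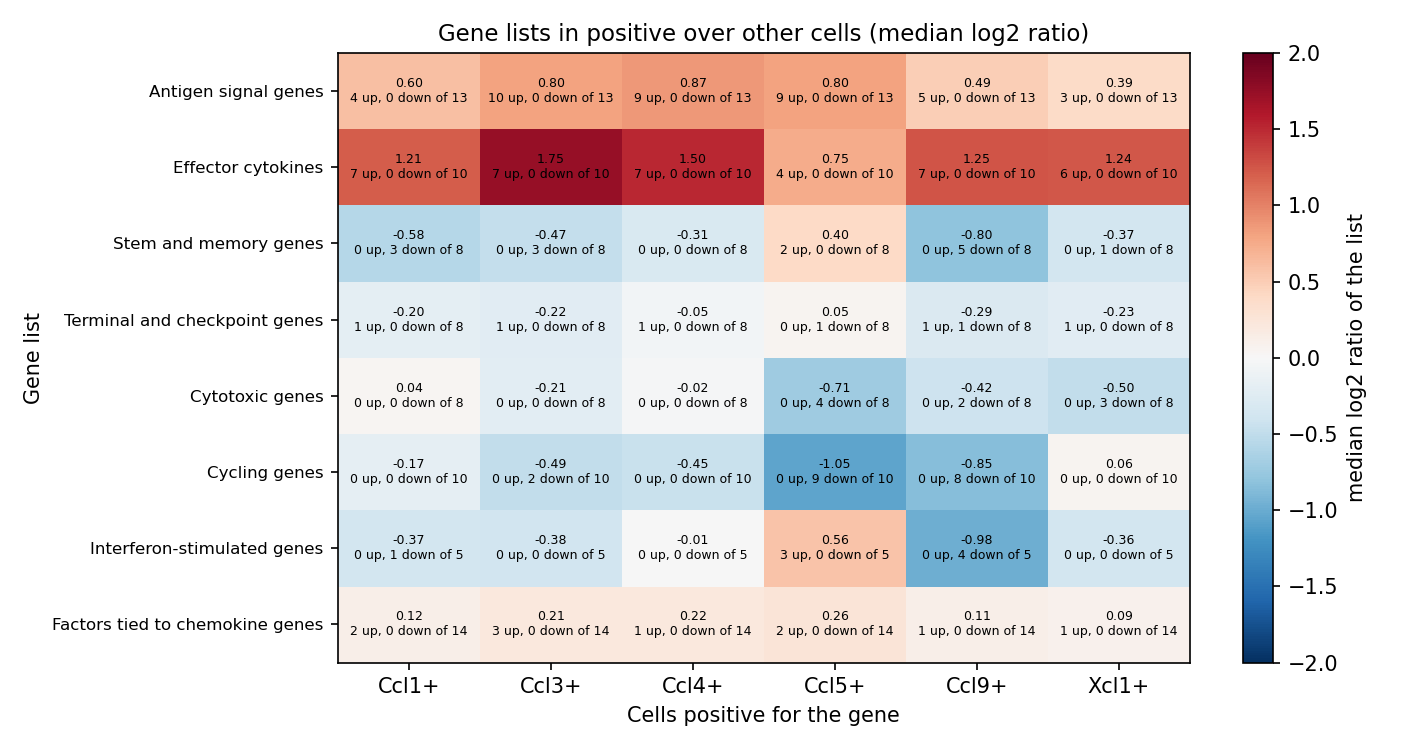
Median log2 ratio of each gene list in cells positive for a chemokine over other cells (color and upper number), with the count of genes at least 0.5 higher ("up") or lower ("down") on the log2 scale in all 3 libraries, of those at 10 CPM or more over all cells of every library. Effector cytokines are higher in every column (median 0.75 to 1.75), and cycling genes are lowest in Ccl5+ cells (-1.05).

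Few transcription factors tied to chemokine genes passed the mark. Of the 13 or 14 that were tested, between 1 and 3 were higher in the positive cells of each chemokine and none was lower. The shares of all genes higher were 0.745% to 5.07%, and the 1 of 13 in Ccl9+ cells lay near its background of 5.07%. Fos, a subunit of AP-1, was higher in Ccl1+, Ccl3+, Ccl4+ and Ccl5+ cells (0.95 to 1.02 in Ccl3+ cells), and Rel, an NF-κB subunit, in Ccl1+, Ccl3+, Ccl9+ and Xcl1+ cells (0.66 to 0.98 in Xcl1+ cells). Between libraries, Nfkb1 was at 942, 637 and 569 CPM and Fosl2 at 129, 82.8 and 77.5 CPM in the sIL-2, then the Trikine, then the sIL-2 + IL-21 library. The levels of Ccl5, and also of Ccl1, Ccl4 and Ccl9, had the same order. When each cell was weighted equally, only Ccl4 of these chemokines kept that order. For Ccl5 and Ccl1 the Trikine and sIL-2 + IL-21 libraries changed places, and for Ccl9 the sIL-2 + IL-21 library became the highest. A link between these factors and the chemokine levels was not tested. Klf13, known as a late activator of Ccl5 in T cells, was at 182, 143 and 138 CPM. Eomes was at 11.8, 4.95 and 2.64 CPM. Of the list, 5 of 15 genes were lower and none was higher for Trikine over sIL-2, against 5.76% and 2.72% of all genes. For sIL-2 + IL-21 over sIL-2, 4 of 16 were lower and 1, Batf3, was higher, against 10.3% and 5.65%.

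Among the receptors of these ligands, Ccr1 was at 5.35 CPM in the sIL-2 library, 3.95 CPM in the IL-2/21-Trikine library and 6.80 CPM in the sIL-2 + IL-21 library, under the filter of 10 CPM. Ccr3, Ccr8 and Xcr1 were lower still in every library, so that no ratio was taken for these receptors.

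Of 28 other chemokine ligands, 25 stayed under 10 CPM in every library. The 3 others were Cxcl10, Ccl25 and Cxcl2. Cxcl10, an interferon-induced ligand of Cxcr3, was at 61.4, 54.2 and 25.4 CPM in the sIL-2, then the Trikine, then the sIL-2 + IL-21 library, with a log2 ratio of 1.09 for Trikine over sIL-2 + IL-21 and -1.27 for sIL-2 + IL-21 over sIL-2. It was higher in Ccl5+ cells (1.04 to 1.34) and lower in Ccl1+ cells (-1.01 to -0.58). Ccl25 was level at 12.3, 12.5 and 11.4 CPM. The receptors Cxcr3 and Cxcr4 respond to interferon-induced ligands and to Cxcl12. Both were higher in Ccl5+ cells (0.54 to 1.08 and 0.95 to 1.24) and lower in Ccl9+ cells (-1.06 to -0.59 and -1.17 to -0.90). They were 2 of 5 other chemokine receptors tested in Ccl5+ cells, against 1.93% of all genes higher. With Ccr2, 3 of 5 were lower in Ccl9+ cells, against 6.14% of all genes. In Ccl1+ cells 1 of 5, Cxcr4, was lower (-0.91 to -0.59), against 0.620%. Ccr7, the lymph node homing receptor, was at 294, 462 and 242 CPM and thus highest in the IL-2/21-Trikine library, where Xcl1+ cells were also most frequent. Its log2 ratio in Xcl1+ cells over others was 0.25 in the IL-2/21-Trikine library, short of the mark. The ratio was 0.76 in the sIL-2 library and 0.90 in the sIL-2 + IL-21 library.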

How the data were processed

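Gene counts were analysed for 6 chemokine genes in 3 libraries, 1 per treatment. The authors sequenced 10x 3′ libraries and deposited whole-number UMI counts per gene and cell from Cell Ranger 9.0.0 with intronic reads. The labels name the mm10 build and the methods a GRCm39 reference, and no coordinate of the counts is given here. Cells with 500 to 120000 UMIs and at most 20% mitochondrial UMIs were kept, after the study's limits. No doublet caller was run. The members and gene lists were chosen with earlier results of these data known. Levels were summed UMIs as CPM, with exact Poisson intervals, exact Clopper-Pearson intervals for shares and conditional binomial intervals for ratios. Thinning drew 2000 UMIs per cell without replacement. The genes named are the 6 members, the 5 genes with the highest lowest ratio over the 3 libraries for each member, taken with the filter over all cells that was added after the data were seen (without receptor segments and mitochondrial genes), and examples of the lists. The code was checked on simulated cells and used Python 3.11.15, numpy 2.4.6, scipy 1.17.1 and pandas 2.3.3. RefSeq promoter windows are GRCm38.p6.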

Additional observations from a re-analysis of the deposited data

How the results depend on the processing

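With 1 library per treatment, no setting stands in for replicates. Each count of chemokines past a log2 ratio of 0.5 changed in some settings. For Trikine over sIL-2 the count of 1 was 2 with each cell weighted equally, and 2 with each cell capped at the 99th percentile. For Trikine over sIL-2 + IL-21 the count of 1 was 0 with equal weights. For sIL-2 + IL-21 over sIL-2 the count of 4 was 1 with equal weights. It was 3 with another scaling or without the 5% of cells with most UMIs. The number of pairs found together was 5, and it was 2 when cells were thinned to 5000 UMIs, 1 with no thinning, 9 when at least 2 UMIs were asked for, 7 at 1000 UMIs and 9 by odds ratio. Deeper cells have larger shares and lower ceilings for this ratio. Leaving out cells with markers of other types, or with at least 2 myeloid markers (added after the data were seen), changed none of these counts. With the added filter over all cells, the genes higher in positive cells numbered 48 to 284 for the 6 chemokines, against 52 to 336. Over all settings the log2 ratio of Ccl5 was -1.31 to -1.21 for Trikine over sIL-2 and -1.39 to -0.98 for sIL-2 + IL-21 over sIL-2, and that of Xcl1 was 0.27 to 0.57 for Trikine over sIL-2 + IL-21. The sign was not kept for Xcl1 in Trikine over sIL-2 (-0.02 to 0.05), for Ccl1, Ccl5 and Ccl9 in Trikine over sIL-2 + IL-21, or for Ccl9 in sIL-2 + IL-21 over sIL-2 (-0.33 to 0.09). Of the other values, 58 log2 ratios stayed within their counting interval and 68 did not, and 49 shares did and 77 did not. No paired analysis was possible because there was 1 library per group.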
